A study of Homo sapiens with 24 samples.

Results

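The comparison described here is the removal of folic acid from U937 cells that were all treated with OTX. U937 is a human monocytic cell line that is used as a model of AML (acute myeloid leukaemia). The comparison rests on 6 of the 24 libraries of the series, chosen by the cell line, the treatment and the folic acid condition that the labels give. In 3 of them the cells were cultured with folic acid (+FA, replicates 1 to 3), and in the other 3 without it (-FA, columns 0 to 2). Both groups carry the drug, so neither is an untreated control. From knowledge of the study, OTX stands for birabresib (OTX015), an inhibitor of the BET bromodomain proteins. The labels give only the abbreviation, with no dose, no duration of treatment and no length of time without folic acid. Whether replicates are separate cultures is not stated either, and p-values then measure only the spread between these samples, which may be technical. For comparison, the 6 U937 libraries treated with the solvent DMSO and 6 OTX libraries of an AML line, IMS-M2, were used, each with and without folic acid. Polyadenylated RNA was sequenced, and expression is given as FPKM, fragments that map to a gene, corrected for its length and for the size of the library.

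Folic acid is the vitamin from which cells make tetrahydrofolate, the carrier of the carbon units that enter thymidylate, purines and methionine. Thymidylate synthase and the purine enzymes use these units to make DNA and RNA precursors, and the methionine cycle passes them to S-adenosylmethionine, the methyl donor for DNA and histones. BET proteins bind acetylated histones and recruit the elongation factor P-TEFb, and myeloid leukaemia cells often depend on them for MYC expression. U937 cells are blocked at an early monocytic stage and can be driven to mature further by several agents.

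The folic acid conditions were deposited in separate tables, and whether those tables were normalized together is not stated, so the table and folic acid cannot be told apart in this comparison. Values were therefore rescaled across the 6 libraries by median-of-ratios factors, which lay between 0.988 and 1.005. FPKM summed to 585692 to 600212 in the +FA libraries and to 545538 to 552125 in the -FA libraries, and 10636 to 10660 genes reached 1 FPKM. The sequencing depth is unknown. Pearson's r of log2 values across genes, which are not independent replicates, was 0.98 to 0.992 in pairs of the same group and 0.967 to 0.985 in pairs of different groups. On the first principal component (51.1% of the variance) +FA replicate 1 stood at -2.83, nearer to the -FA libraries (9.84 to 19.5) than replicates 2 (-15.7) and 3 (-28.1) did. Myeloid identity genes were present in all 6 libraries: SPI1, the master factor of myeloid cells, at 88.4 to 142 FPKM, the integrin ITGB2 at 449.6 to 599.8 FPKM and the surface marker CD33 at 26.4 to 37.7 FPKM. The macrophage receptor CSF1R did not exceed 0.291 FPKM, and myeloperoxidase (MPO) did not exceed 1.58 FPKM. Of other cell types, 13 lymphoid, 17 erythroid and megakaryocyte and 14 stromal and epithelial markers were read. The lymphoid markers summed to 64.2 to 70 FPKM with folic acid and 78.4 to 102 FPKM without it, almost all of it the granule gene NKG7, with 5 markers listed at 0 in all 6 libraries. The erythroid sum was 5.9 to 7.21 and 5.29 to 6.6 FPKM, with 6 markers listed at 0. The stromal sum was 3.88 to 4.62 and 8.87 to 10.6 FPKM, with 7 markers listed at 0, and PECAM1, which monocytes also express, was the only stromal marker to reach 1 FPKM.

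Without folic acid, 2229 of 10836 genes tested changed in limma (adjusted p below 0.05), which is 20.6% of them. Of these 1158 were higher (10.7%) and 1071 lower (9.88%), and the median log2 change of all genes was 0.005. A log2 change of at least 1, on the scale of log2(FPKM + 1), was reached by 57 genes (0.526%), 41 higher (0.378%) and 16 lower (0.148%). The balance depended on the scaling. With all libraries brought to equal FPKM sums, 79.5% of 2769 called genes were higher, against 52% of the 2229, and the median of all genes moved to 0.096. Ribosomal protein genes took 20.6 to 21.1% of the FPKM in the +FA libraries and 17.6 to 18.3% in the -FA libraries. Every library changed the count of calls when it was left out: 3628 genes without +FA replicate 1, 557 without replicate 2, 1259 without replicate 3, and 1339, 342 and 996 without -FA columns 0, 1 and 2. Over all genes tested the called share was 33.5%, 5.14% and 11.6% without +FA replicates 1 to 3, and 25.6% with equal FPKM sums. The list counts below are to be read beside the share of all genes in the same fit. When changes were simulated on these 6 libraries' values, 100% of genes changed by a log2 of 1 and 72% of those changed by 0.5 were called. Of the unchanged genes 15 were called. The changed genes were drawn from those averaging above 5 FPKM, and noise was drawn separately for each gene and library. Deviations that many genes of a library share were left out, so these shares may be too high for the real libraries.

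**Figure D1:**
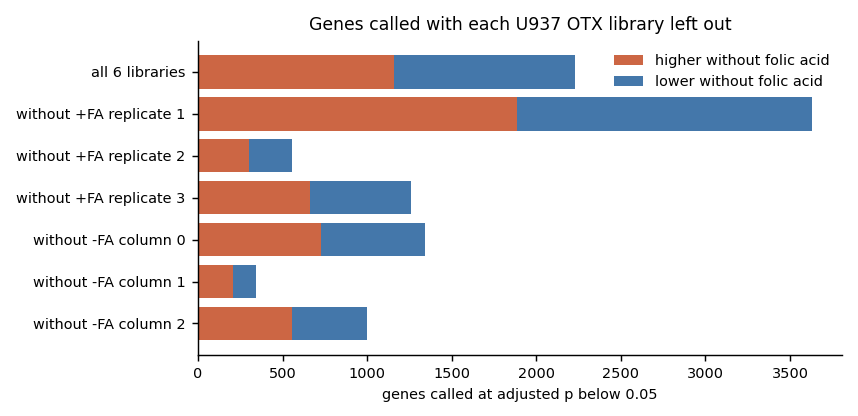
Bars give the number of genes called at an adjusted p below 0.05 in U937 under OTX (horizontal axis), with all 6 libraries and with each library left out, split into genes higher and lower without folic acid. The count was 2229 with all 6 libraries, lowest (342) without -FA column 1 and highest (3628) without +FA replicate 1.

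The genes with the highest changes are given first. C3, the central complement component (hg19, chr19:6677846-6720662), stood at 1.02, 1.05 and 1.05 FPKM in +FA replicates 1 to 3 and at 6.07, 5.98 and 6.12 FPKM in -FA columns 0 to 2. The groups were far apart against a spread of a few hundredths of an FPKM, and the log2 change was 1.79 ± 0.07 (SE, n = 3 per group; adjusted p = 2.95e-05). CD36, a scavenger receptor for lipoproteins and fatty acids (chr7:80231504-80308593), stood at 4.40, 4.86 and 5.41 FPKM with folic acid and at 17.5, 17.7 and 20.5 FPKM without it, a log2 change of 1.73 ± 0.10 (adjusted p = 0.000159). LILRA5, an activating receptor of monocytes, was at 0.822 to 1.1 FPKM with folic acid and at 4.85 to 6.12 FPKM without it. The tryptase gene TPSAB1 had means of 58.2 ± 8.36 and 185 ± 20.1 FPKM (SD over 3 libraries, here and below), although it has near-identical copies among which reads may be split. FCGRT, the Fc receptor that recycles IgG and albumin, rose from 27.0 ± 5.47 to 81.3 ± 10.5 FPKM, and the succinate receptor SUCNR1 from 9.72 ± 1.11 to 25.9 ± 4.04 FPKM. SEPW1, a selenoprotein, rose by a log2 of 1.47 and the homeobox gene DLX2 by 1.45. That the groups did not overlap was a condition for naming these genes, and 41.4% of all genes tested met it. Each of these calls held without any single library. HOTAIRM1, a noncoding RNA of the HOXA cluster induced in myeloid maturation, was at 5.39, 2.03 and 1.69 FPKM with folic acid and at 8.60, 9.10 and 6.44 FPKM without it. Its adjusted p of 0.0224 became 0.0833 without +FA replicate 2, and 0.067 and 0.0965 without -FA columns 0 and 1.

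**Figure D2:**
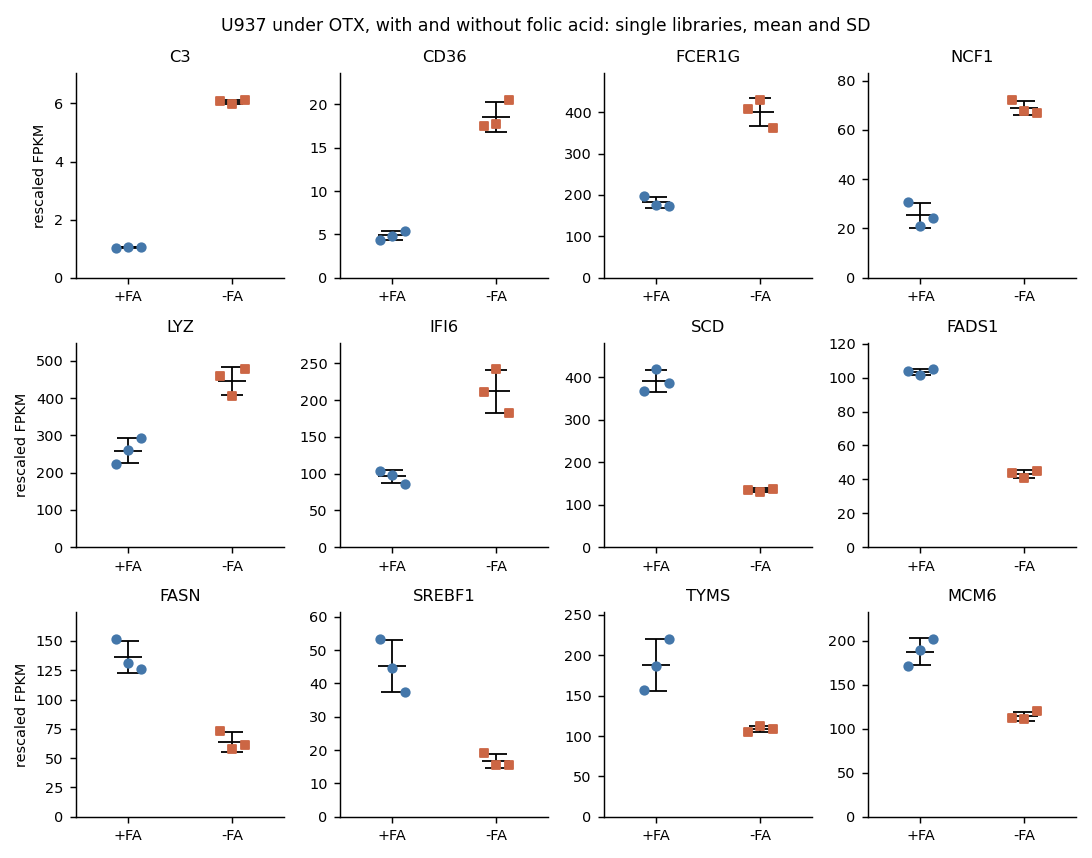
Each panel plots 1 gene in the 6 U937 OTX libraries (points; circles +FA replicates 1 to 3, squares -FA columns 0 to 2) with the group mean and SD, in rescaled FPKM on a linear axis from 0. In all 12 panels the groups lie apart, which was a condition for naming those ranked by highest or lowest change. C3, CD36, FCER1G, NCF1, LYZ and IFI6 were higher and SCD, FADS1, FASN, SREBF1, TYMS and MCM6 lower without folic acid.

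Most measured monocyte and macrophage genes were higher. Of 41 listed genes, 27 passed the filter of a mean of 1 FPKM in a group, 20 of these were higher, 0 lower and 7 did not pass the test, and their median log2 change was 0.50. The count was 13 without +FA replicate 2. FCER1G, the signalling chain of Fc receptors (chr1:161185087-161189038), stood at 197, 176 and 173 FPKM with folic acid and at 407, 430 and 363 FPKM without it, a log2 change of 1.13 ± 0.09 (adjusted p = 0.00086). S100A8, a calcium-binding alarmin of monocytes and neutrophils, was at 2.30, 1.80 and 1.43 FPKM and then at 6.84, 8.56 and 6.53 FPKM. C5AR1, the receptor for the complement fragment C5a, rose from 1.77 ± 0.25 to 4.61 ± 0.202 FPKM. Lysozyme (LYZ, chr12:69742134-69748013), a secreted antibacterial enzyme, stood at 224, 261 and 293 FPKM with folic acid and at 459, 405 and 477 FPKM without it, with no overlap and an adjusted p of 0.00561. In bulk libraries a change in the share of cells of a type and a change in RNA per cell cannot be told apart. The stromal marker PECAM1 moved with them, from 4.09 ± 0.382 to 9.72 ± 0.904 FPKM, while COL1A2, COL3A1, EPCAM and CDH1 were listed at 0 in all 6 libraries.

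The phagocyte NADPH oxidase makes superoxide to kill microbes. Of 7 subunit genes 4 were higher, 0 lower and 3 did not pass the test (median 0.52, lowest -0.19), with 2 higher without +FA replicate 2 and 2 without -FA column 0. NCF1, the p47phox organiser subunit (chr7:74188309-74203659), stood at 30.8, 20.9 and 24.3 FPKM with folic acid and at 72.2, 67.8 and 67.0 FPKM without it, a log2 change of 1.43 ± 0.13 (adjusted p = 0.000924). Its near-identical pseudogenes may share its reads. The catalytic subunit CYBB rose only from 1.52 ± 0.0938 to 2.64 ± 0.523 FPKM, against 20.2 and 40.8 FPKM in the DMSO libraries with and without folic acid. Its adjusted p of 0.0195 became 0.0696 without +FA replicate 2, and 0.0567 and 0.0584 without -FA columns 0 and 2. CYBA, its partner, overlapped between the groups (380, 245 and 187 against 516, 527 and 372 FPKM) and passed the test at 0.041, but not without +FA replicates 2 (0.122) and 3 (0.0713) or -FA columns 0 (0.116) and 1 (0.149).

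Genes of lysosomes and autophagy, the machinery that digests engulfed and worn-out material, were higher in 11 and lower in 0 of 33 genes, with a median of 0.24. The count was 4 without +FA replicate 2, 3 without -FA column 1 and 6 without column 2, and with equal FPKM sums it was 20. With genes that share a locus left out it was 5 of 23, beside a called share of 23.1% over all genes in that fit. Cathepsin D (CTSD) stood at 1392, 1125 and 1345 FPKM with folic acid and at 2315, 2019 and 2129 FPKM without it. SQSTM1, the autophagy adaptor p62, rose from 84.3 ± 14.2 to 155 ± 9.46 FPKM, and progranulin (GRN) from 309 ± 15.9 to 452 ± 30.8 FPKM. The tables list another gene at the loci of CTSD and SQSTM1. Granule and progenitor genes were mixed, with 5 higher and 2 lower of 15 (median 0.22), where 10.7% of all genes were higher and 9.88% lower. CEBPE, a factor of granulocyte maturation, rose from 2.06 ± 0.433 to 4.63 ± 0.834 FPKM and held without any single library. Neutrophil elastase (ELANE) was at 853, 722 and 554 FPKM and then at 1221, 1085 and 913 FPKM, and lost its call without 4 of the libraries, +FA replicates 2 (adjusted p = 0.0939) and 3 (0.0544) and -FA columns 0 (0.105) and 1 (0.125). The number of higher granule genes was 1 without +FA replicate 2, 3 without replicate 3, and 1 each without -FA columns 0 and 1.

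Among the genes of the cholesterol and fatty acid synthesis list, 5 with the lowest changes are given first. SCD, the desaturase that makes oleate (chr10:102106772-102124588), stood at 368, 418 and 386 FPKM in the +FA libraries and at 136, 130 and 138 FPKM in the -FA libraries. The groups were separated by far more than the spread within either, and the log2 change was -1.53 ± 0.08 (adjusted p = 0.000123). SREBF1, the transcription factor SREBP-1 that drives this pathway, stood at 53.3, 44.7 and 37.6 FPKM and then at 19.1, 15.5 and 15.4 FPKM, a log2 change of -1.38 ± 0.14. FADS1 and FADS2, the desaturases of polyunsaturated fatty acids, neighbour each other on chromosome 11. FADS1 was at 104, 102 and 105 FPKM with folic acid and at 43.6, 40.6 and 45.2 FPKM without it. FADS2 was at 232, 213 and 208 FPKM and then at 111, 89.5 and 95.9 FPKM. Fatty acid synthase (FASN) was at 152, 131 and 126 FPKM and then at 73.5, 57.6 and 60.9 FPKM, a log2 change of -1.08 ± 0.11. All 5 genes were among the 12 lowest, which were named only where the groups did not overlap. Each of the 5 calls held without any single library. The tables list another gene at the loci of SREBF1 and FADS1.

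Over the whole list of cholesterol and fatty acid synthesis, 31 of 38 genes passed the filter, 14 were lower and 3 higher, and the median was -0.28. The number lower was 8 without +FA replicate 2, 8 without -FA column 1, 9 without column 2 and 9 with genes that share a locus left out. The 3 that rose belong to the sterol branch: squalene epoxidase (SQLE), lanosterol demethylase (CYP51A1) and the C4-methylsterol oxidase MSMO1. MSMO1 stood at 16.5, 20.4 and 17.0 FPKM with folic acid and at 25.7, 31.1 and 25.7 FPKM without it (log2 0.59 ± 0.11; adjusted p = 0.0125, or 0.0606 without -FA column 1). CYP51A1 rose from 22.9 ± 1.32 to 30.6 ± 1.57 FPKM, with an adjusted p of 0.0811 without -FA column 1 and 0.0519 without column 2. SQLE was at 49.0, 47.5 and 32.0 FPKM and then at 60.0, 69.6 and 60.5 FPKM, and lost its call without +FA replicate 2 (0.0693) and without -FA columns 0 (0.0738), 1 (0.138) and 2 (0.0683).

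Interferon response genes were mostly higher. Of 39 listed genes 26 passed the filter, 18 were higher and 2 lower, and the median log2 change was 0.43. Without +FA replicate 2 the number higher was 11, and without -FA column 1 it was 9. OAS1, a sensor of double-stranded RNA, stood at 1.60, 2.09 and 1.62 FPKM with folic acid and at 4.84, 5.51 and 5.24 FPKM without it (log2 1.16 ± 0.10; adjusted p = 0.00086). IRF9, the DNA-binding subunit of the interferon factor ISGF3, was at 4.49, 4.77 and 4.74 FPKM and then at 10, 10.2 and 8.86 FPKM. IFI6, an interferon-induced mitochondrial protein (chr1:27992572-27998724), was the most abundant of the 4 leading genes, at 104, 98.1 and 86.6 FPKM and then at 211, 242 and 183 FPKM. PARP9, a partner of the interferon-induced ubiquitin ligase DTX3L, rose from 1.71 ± 0.0642 to 3.78 ± 0.354 FPKM. The 2 genes that fell code for membrane proteins that block virus entry. IFITM2 was at 399, 415 and 513 FPKM and then at 291, 224 and 259 FPKM, and IFITM1 fell from 9.19 ± 1.1 to 5.60 ± 0.836 FPKM. IFITM1 lost its call without +FA replicate 2 (0.0579) and without -FA column 1 (0.0614), and both have near-identical relatives.

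Motifs were searched in promoters from RefSeq (GRCh38.p14, from upstream of the start to just after it). TCACNCCAC, with N any base, was added after the values were seen. It was in 0 of the 9 matched promoters of cholesterol and fatty acid genes that fell, against 1.03% of all. CACGTG was in 9.57% of promoters of higher genes, 11.7% of lower genes and 10.7% of all. In the same order TGACGTCA was in 2.77%, 3.89% and 3.48%, TATAAA in 6.28%, 5.34% and 5.07%, and TGATGCAA in 0.745%, 1% and 0.465%. The interferon-stimulated response element, searched as GAAA, any 2 bases and GAAA on both strands with overlapping matches allowed, was in 8 of the 14 promoters matched to the interferon genes that rose (57.1%). It was in 2.65% of all 8814 promoters, in 4.57% of those of the 940 higher genes and in 2.45% of those of the 899 lower genes. The motif was added after the values were seen, and a match is a description only. No share was taken for interferon genes that did not rise, so membership of the list and the rise cannot be told apart here. The stretches below are from RefSeq (GRCh38.p14), read 5′ to 3′ on the gene's strand and ending before the transcription start, with the matches in capitals. IFI6 is named by its rank, and IFIT3 and ISG15 were chosen after their values were seen, to show the element on the opposite strand and as overlapping copies.
IFI6 (chr1:27672256-27672368, minus strand): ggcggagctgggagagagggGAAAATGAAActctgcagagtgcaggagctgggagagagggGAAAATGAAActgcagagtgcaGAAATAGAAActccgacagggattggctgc
IFIT3 (chr10:89327821-89327904, plus strand): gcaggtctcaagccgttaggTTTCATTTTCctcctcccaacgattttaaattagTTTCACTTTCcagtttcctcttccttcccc
ISG15 (chr1:1013364-1013419, plus strand): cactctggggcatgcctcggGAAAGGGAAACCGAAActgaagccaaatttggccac
IFI6 holds 3 matches, the first and second in a repeated stretch. IFIT3, an antiviral RNA-binding protein, has 2 matches and stood at 3.97, 4.29 and 4.06 FPKM with folic acid and at 7.02, 7.73 and 8.39 FPKM without it. ISG15, a ubiquitin-like modifier, has 2 overlapping matches and rose from 33.7 ± 8 to 54.5 ± 5.92 FPKM. Its adjusted p of 0.0205 became 0.0785 without +FA replicate 2, and 0.0568 and 0.0957 without -FA columns 0 and 1.

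Of the folate enzymes 4 of 10 cytosolic and 3 of 8 mitochondrial genes were lower, and no measured gene of folate uptake passed the test. Over all genes tested 9.88% were lower and 10.7% higher. Among 6 of 14 uptake and retention genes that passed the filter, 0 were higher and 0 lower in limma. SLC19A1, the reduced folate carrier, stood at 23.8, 20.2 and 20.1 FPKM with folic acid and at 28.0, 22.5 and 22.5 FPKM without it. Its groups overlapped (log2 0.17 ± 0.11; adjusted p = 0.275). FPGS, which adds the glutamate tail that keeps folate in the cell, was at 38.5 ± 4.36 and 36.3 ± 4.18 FPKM, and the mitochondrial folate carrier SLC25A32 at 15.2 ± 1.53 and 18.0 ± 2.27 FPKM. FPGS and SLC25A32 were called only with a trend on length and GC removed (adjusted p = 0.0243 and 0.0475 in limma). That fit called 38% of all genes.

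Of 10 cytosolic folate enzymes 4 were lower and 0 higher (median -0.21). Thymidylate synthase (TYMS, chr18:596998-712662, a locus shared with other genes), which spends a folate carbon unit to make thymidylate, stood at 157, 187 and 220 FPKM in the +FA libraries and at 104, 113 and 108 FPKM in the -FA libraries. The -FA values lay close together and below all +FA values, which spread widely, and the log2 change was -0.77 ± 0.12 (adjusted p = 0.0072). It held without any single library. MTHFD1, the trifunctional cytosolic enzyme, was at 45.3, 45.3 and 47.9 FPKM and then at 35.9, 32.4 and 35.9 FPKM. ATIC, which uses formyl-tetrahydrofolate in the last steps of purine synthesis, fell from 59.5 ± 7.50 to 43.1 ± 3.02 FPKM. MTHFD1 lost its call without +FA replicate 2 (0.0574) and without -FA column 1 (0.0783), when 1 enzyme of the list was called each time. ATIC lost its call without +FA replicates 2 (0.0901) and 3 (0.0515) and -FA columns 0 (0.0674) and 1 (0.109). SHMT1, which takes a carbon unit from serine in the cytosol, and the methionine synthase MTR did not pass the test (log2 -0.01 and -0.02).

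In mitochondria, 3 of 8 measured folate enzymes were lower and 0 higher (median -0.29). SHMT2, which takes a carbon unit from serine, stood at 138, 128 and 133 FPKM with folic acid and at 98.1, 90.9 and 94.2 FPKM without it (log2 -0.49 ± 0.08; adjusted p = 0.00698), a call that held without any single library. MTHFD2, the next enzyme of the pathway, was at 71.8, 82.0 and 83.1 FPKM and then at 59.3, 62.8 and 64.7 FPKM. MTHFD1L, which releases formate, fell from 10.1 ± 0.588 to 7.81 ± 0.547 FPKM. MTHFD2 and MTHFD1L passed the test narrowly (adjusted p = 0.0316 and 0.0296). Only SHMT2 kept its call without +FA replicates 2 or 3 or any -FA column, where MTHFD2 had 0.0705 to 0.115 and MTHFD1L 0.0524 to 0.128. Without +FA replicate 1, 5 enzymes of the list were lower. With equal FPKM sums SHMT2 alone of this list was called, and ATIC lost its call too.

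The methionine cycle had 4 lower and 0 higher of 13 genes (median -0.23). Cystathionine beta-synthase (CBS), the entry to transsulfuration, fell from 5.12 ± 0.381 to 2.83 ± 0.708 FPKM (log2 -0.69 ± 0.13; adjusted p = 0.0132, with 0.0518 without +FA replicate 2 and 0.0614 without -FA column 1). AHCY, which clears S-adenosylhomocysteine, was at 175, 161 and 178 FPKM and then at 141, 126 and 134 FPKM, and lost its call without +FA replicates 2 (0.0584) and 3 (0.0513) and -FA columns 1 (0.112) and 2 (0.0674). MAT2A, the synthase of S-adenosylmethionine, was at 123, 156 and 184 FPKM and then at 112, 109 and 124 FPKM. Its groups overlapped and it did not pass the test (adjusted p = 0.0712), but it was called without +FA replicate 1 (0.00415) and with a trend on length and GC removed. The number lower was 7 without +FA replicate 1, 0 without replicate 2 or -FA column 1, 1 without replicate 3 or column 2, and 2 without column 0 or with equal FPKM sums. DNA and histone methylation enzymes were lower in 9 and higher in 0 of 29 genes (median -0.14), among them EZH2, the H3K27 methyltransferase, at 31.4, 33.1 and 31.7 FPKM and then at 23.7, 24.3 and 25.8 FPKM. EZH2 lost its call without +FA replicate 2 (0.0714) and without -FA column 1 (0.0795). That list had 1, 5, 0 and 2 lower genes without +FA replicates 2 and 3 and -FA columns 1 and 2, and 5 lower and 3 higher with equal FPKM sums.

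Genes of nucleotide synthesis were lower in part. In de novo purine synthesis 7 of 15 genes were lower and 0 higher (median -0.27). IMPDH2, the first step to guanine nucleotides, was at 237, 246 and 251 FPKM and then at 192, 183 and 190 FPKM. ADSL, adenylosuccinate lyase, fell from 93.0 ± 6.6 to 68.3 ± 3.22 FPKM, and PRPS1, which makes the ribose phosphate donor, from 60.8 ± 9.40 to 43.5 ± 2.75 FPKM. IMPDH2 and ADSL lost their calls without +FA replicate 2 (0.0601 and 0.0528) and without -FA column 1 (0.0744 and 0.0743). PRPS1 lost its call also without columns 0 and 2 (0.0842 without replicate 2, 0.0636, 0.121 and 0.0569 without columns 0 to 2). The number of purine genes lower was 0 without replicate 2 or column 1, 3 without replicate 3 or column 2, and 2 without column 0 or with equal FPKM sums. Over all genes 5.14% were called without replicate 2 and 11.6% without replicate 3, and 342 genes were called without column 1.

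Among 18 genes of pyrimidine synthesis and ribonucleotide reduction 6 were lower and 1 higher (median -0.18). Thymidine kinase (TK1), which salvages thymidine, stood at 126, 104 and 111 FPKM with folic acid and at 84.3, 75.4 and 69.9 FPKM without it. RRM1, the large subunit of ribonucleotide reductase, was at 68.9, 75.5 and 79.4 FPKM and then at 50.9, 52.4 and 56.5 FPKM. The exception was RRM2B, the p53-induced small subunit that serves cells outside S phase, at 10.4, 10.1 and 8.46 FPKM and then at 12.3, 16.6 and 14.1 FPKM (log2 0.52 ± 0.12; adjusted p = 0.0224). The call of TK1 was lost without -FA column 1 (0.0614) and that of RRM1 also without +FA replicate 2 (0.0607 and 0.0518). RRM2B lost its call without +FA replicate 2 (0.0673) and -FA columns 1 (0.0944) and 2 (0.0552). The number lower was 3 without +FA replicate 2 and 1 without -FA column 1. Of the polyamine genes, ornithine decarboxylase (ODC1), a MYC target and the entry to the pathway, was at 145, 138 and 125 FPKM and then at 87.8, 104 and 90.8 FPKM, with an adjusted p of 0.0108, or 0.0515 without +FA replicate 2.

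**Figure D3:**
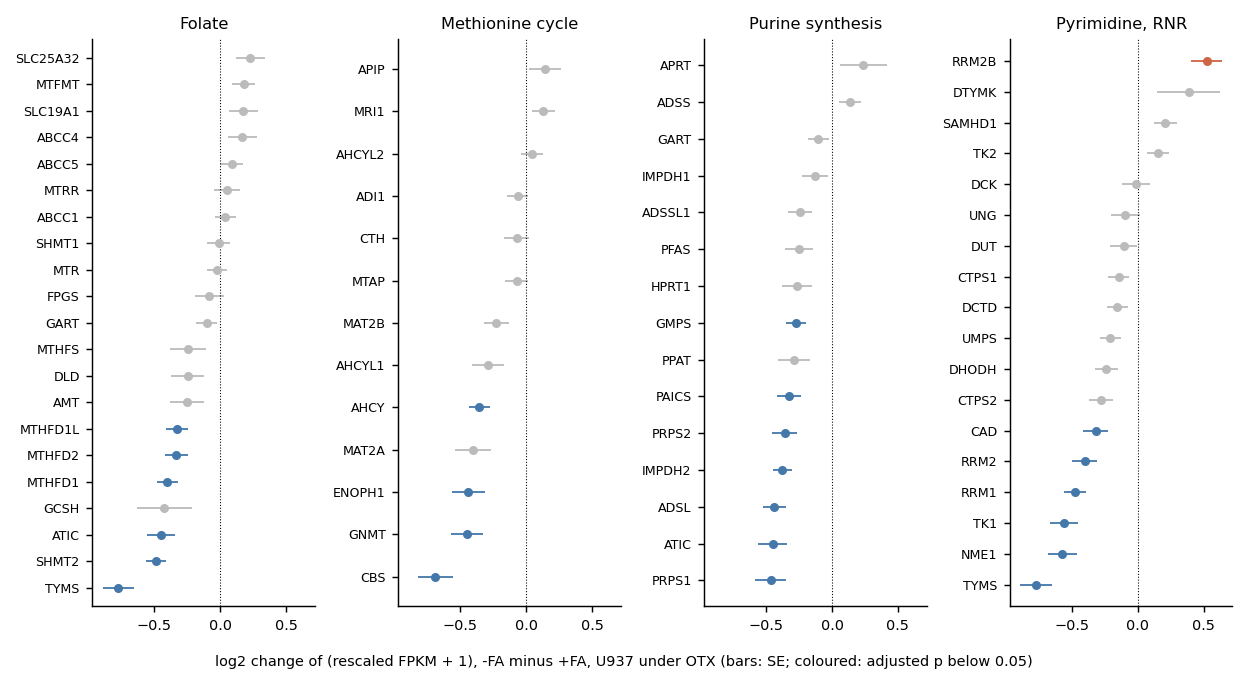
Points give the log2 change without folic acid (horizontal axis, log2 of rescaled FPKM + 1, bars SE, n = 3 libraries per group) of measured genes of folate uptake and folate enzymes, the methionine cycle, purine synthesis, and pyrimidine synthesis with ribonucleotide reduction (RNR). Coloured points passed the test: TYMS at -0.77 and CBS at -0.69 lie lowest, and RRM2B at 0.52 is the only called gene to the right of 0.

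Most DNA replication genes were lower. Of 47 genes 31 were lower, 0 higher and 16 did not pass the test, and the median log2 change was -0.39. In 39 of them the -FA libraries lay entirely below the +FA libraries, where 41.4% of all genes tested did not overlap in either direction. The number lower was 16 without +FA replicate 2 and 10 without -FA column 1. MCM6, a subunit of the replicative helicase, stood at 171, 189 and 202 FPKM with folic acid and at 112, 111 and 120 FPKM without it (log2 -0.71 ± 0.09; adjusted p = 0.00356). MCM2, another subunit, was at 118, 108 and 121 FPKM and then at 77.6, 60.6 and 70.6 FPKM. RPA3, part of the single-strand binding complex, fell from 30.1 ± 0.997 to 18.7 ± 0.654 FPKM, and ORC1, which marks origins, from 32.5 ± 0.249 to 21.6 ± 1.72 FPKM. These 4 calls held without any single library.

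Motifs of E2F, the factor family that switches on S phase genes, were searched in the same promoters. The motif TTTGGCGC, searched on both strands, was in 6 of the 26 matched promoters of replication genes that fell (23.1%), against 1.27% of all 8814, and the motif TTTCCCGC was in 8 of the 26 (30.8%), against 2.83%. Among all genes that fell the shares were 2.56% and 5.34%, and among all that rose 0.851% and 1.7%. No share was taken for replication genes that did not fall, so membership of the list and the fall cannot be told apart here. A match is a description only. The windows below show where the matches (capitals) lie upstream of the start in 3 helicase genes. They are RefSeq sequence (GRCh38.p14), 5′ to 3′ on the gene's strand, and MCM7 and MCM3 were chosen after their values were seen because they hold the second motif.
MCM6 (chr2:135876506-135876615, minus strand): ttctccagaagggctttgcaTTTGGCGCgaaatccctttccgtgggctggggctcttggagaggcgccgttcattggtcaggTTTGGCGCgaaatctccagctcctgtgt
MCM7 (chr7:100101557-100101604, minus strand): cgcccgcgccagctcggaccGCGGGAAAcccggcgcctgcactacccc
MCM3 (chr6:52284889-52284936, minus strand): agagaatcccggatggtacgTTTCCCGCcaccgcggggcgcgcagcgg
MCM7 holds the motif on the opposite strand, and MCM6 holds 2 copies in the same direction. MCM7 was at 306, 271 and 267 FPKM and then at 197, 166 and 171 FPKM. MCM3 was at 120, 114 and 141 FPKM and then at 86.9, 72.3 and 84.7 FPKM, with an adjusted p of 0.0107, or 0.0546 without -FA column 1.

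Genes of mitosis and of DNA repair were lower in smaller shares. In mitosis and G2/M phase 14 of 41 genes were lower and 0 higher (median -0.16). CDC20, the activator of the anaphase-promoting complex, stood at 378, 317 and 361 FPKM with folic acid and at 231, 214 and 211 FPKM without it, and the kinase AURKB at 115, 113 and 112 FPKM and then at 78.7, 69.4 and 68.8 FPKM. KIF20A, a kinesin of cytokinesis, fell from 52.9 ± 3.67 to 31.4 ± 2.01 FPKM. The number lower was 8, 9, 8, 6 and 9 without +FA replicates 2 and 3 and -FA columns 0, 1 and 2, and 9 lower and 3 higher with equal FPKM sums. In DNA damage and repair 11 of 33 genes were lower and 0 higher (median -0.19). Without the same 5 libraries in that order, 3, 6, 5, 1 and 6 repair genes were lower, and with equal FPKM sums 6 were lower and 1 higher.

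Ribosomal protein genes were lower in 45 and higher in 3 of 79 measured genes (median -0.32). With quantile normalization 15 were lower and 12 higher, with the median at -0.12, and the number lower was 21 without +FA replicate 2 and 12 without -FA column 1. RPS18 (chr6:33239852-33244281), a protein of the small subunit, stood at 5929, 5424 and 6504 FPKM with folic acid and at 3487, 3034 and 3583 FPKM without it (log2 -0.82 ± 0.10). RPLP2, of the large subunit stalk, fell from 2596 ± 70.9 to 1664 ± 36.5 FPKM. RPL24 went the other way, from 522 ± 138 to 864 ± 130 FPKM, but lost its call without +FA replicate 2 (0.0893) and -FA columns 0 (0.0805) and 1 (0.122). Many ribosomal protein genes have processed pseudogenes that may share reads. Fibrillarin (FBL), which methylates ribosomal RNA, was at 246, 242 and 287 FPKM and then at 158, 119 and 145 FPKM (log2 -0.88 ± 0.12; adjusted p = 0.0048). Subunits of oxidative phosphorylation were lower in 10 and higher in 4 of 47 (median -0.17), with 0 lower without +FA replicate 2 or -FA column 1, 17 without replicate 1, 6, 5 and 3 without replicate 3 and columns 0 and 2, and 5 lower against 6 higher with equal FPKM sums. Glycolysis and hypoxia genes were lower in 11 and higher in 1 of 33 (median -0.24), with 4, 3 and 7 lower without +FA replicate 2 and -FA columns 1 and 2, and 7 with quantile normalization. The higher one was HK3, the hexokinase of myeloid cells, from 6.70 ± 0.504 to 12.4 ± 1.77 FPKM.

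Serine synthesis and the amino acid stress response, which the factor ATF4 drives when amino acids run short, were lower in 11 and higher in 2 of 29 genes (median -0.21). PHGDH, the first enzyme of serine synthesis, stood at 149, 125 and 115 FPKM with folic acid and at 85.3, 73.5 and 72.2 FPKM without it (log2 -0.74 ± 0.11; adjusted p = 0.00692). PSAT1, the next enzyme, was at 37.7, 40.6 and 47.0 FPKM and then at 20.7, 24 and 26.5 FPKM. DDIT4, an inhibitor of mTORC1, was at 27.6, 27.9 and 21.6 FPKM and then at 13.9, 14.5 and 13.0 FPKM. The alanyl-tRNA synthetase AARS and the alanine transaminase GPT2 fell by 0.54 and 0.52 on the log2 scale. These 5 calls held without any single library. CEBPB, a C/EBP factor of monocyte maturation that is also in this list, rose instead, at 35.0, 28.6 and 19.7 FPKM and then at 54.7, 64.9 and 46.3 FPKM (adjusted p = 0.0149, with 0.0517 without +FA replicate 2 and 0.0717 without -FA column 1). The number lower was 6 without +FA replicate 2, and 5 and 7 without -FA columns 1 and 2, and 7 with equal FPKM sums.

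Readouts of BET inhibition were mixed. HEXIM1, an inhibitor of P-TEFb that BET inhibitors raise (chr17:43224684-43229468), stood at 30.7, 23.9 and 21.1 FPKM with folic acid and at 38.9, 46.4 and 35.5 FPKM without it. All -FA libraries lay above the +FA libraries (log2 0.66 ± 0.15; adjusted p = 0.0199), and the level was 10.1 ± 1.37 and 9.11 ± 2.45 FPKM in the DMSO libraries with and without folic acid. The call was lost without +FA replicate 2 (0.0759) and -FA columns 0 (0.0506) and 1 (0.0906). The difference of the HEXIM1 change from that under DMSO did not pass limma's test (log2 0.83, adjusted p = 0.0771). SERPINI1, a serpin also raised by BET inhibitors, was at 3.19, 2.70 and 2.5 FPKM and then at 4.87, 7.46 and 5.81 FPKM, a call that held without any single library. CDKN1A, the cell cycle inhibitor p21, was at 45.5, 36.3 and 35.5 FPKM and then at 57.0, 68.6 and 54.1 FPKM, with an adjusted p of 0.0162, or 0.0685 without +FA replicate 2 and 0.076 without -FA column 1. MYC was at 22.5, 25.2 and 24 FPKM and then at 23.5, 18.5 and 18.9 FPKM, overlapping and not past the test (log2 -0.23 ± 0.10; adjusted p = 0.136, or 0.0481 without -FA column 0). TXNIP, an arrestin that BET inhibitors can raise, fell from 121 ± 5.10 to 88.5 ± 6.03 FPKM (adjusted p = 0.012, or 0.0571 without +FA replicate 2). Of 17 such readouts 6 were higher and 2 lower, with 2 higher without +FA replicate 2. Of 44 MYC targets 11 were lower and 4 higher (median -0.12), with 3, 5, 2 and 5 lower without +FA replicates 2 and 3 and -FA columns 1 and 2, and 5 lower against 6 higher with equal FPKM sums. MXD4, a MAX partner that opposes MYC, rose from 10.3 ± 1.72 to 18.8 ± 1.92 FPKM.

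Immediate early genes, which respond to signals within minutes, were higher in 10 and lower in 0 of 23 (median 0.36), with 3, 6 and 4 higher without +FA replicates 2 and 3 and -FA column 1. FOS, a subunit of AP-1, stood at 6.83, 6.42 and 7.33 FPKM with folic acid and at 18.0, 18.7 and 18.7 FPKM without it (log2 1.31 ± 0.08; adjusted p = 0.000181). ZFP36, which destabilises cytokine mRNA, was at 20.3, 15.5 and 16.4 FPKM and then at 34.6, 36.7 and 30.5 FPKM. The AP-1 site TGACTCA, searched on both strands, was in 5.43% of the promoters of higher genes, 1.45% of those of lower genes and 2.68% of all. Cytokine and NF-kB targets were higher in 7 and lower in 0 of 19 (median 0.29), with 3 higher without +FA replicate 2 or -FA column 1. Among them ICAM1, an adhesion receptor, was at 13.3, 12.6 and 13.9 FPKM and then at 18.9, 18.6 and 18.6 FPKM, and the monocyte chemokine CCL2 rose from 3.17 ± 0.157 to 5.65 ± 0.782 FPKM. BCL2A1, a BCL2 relative that NF-kB induces, rose from 17.4 ± 1.40 to 28.4 ± 1.47 FPKM.

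**Figure D4:**
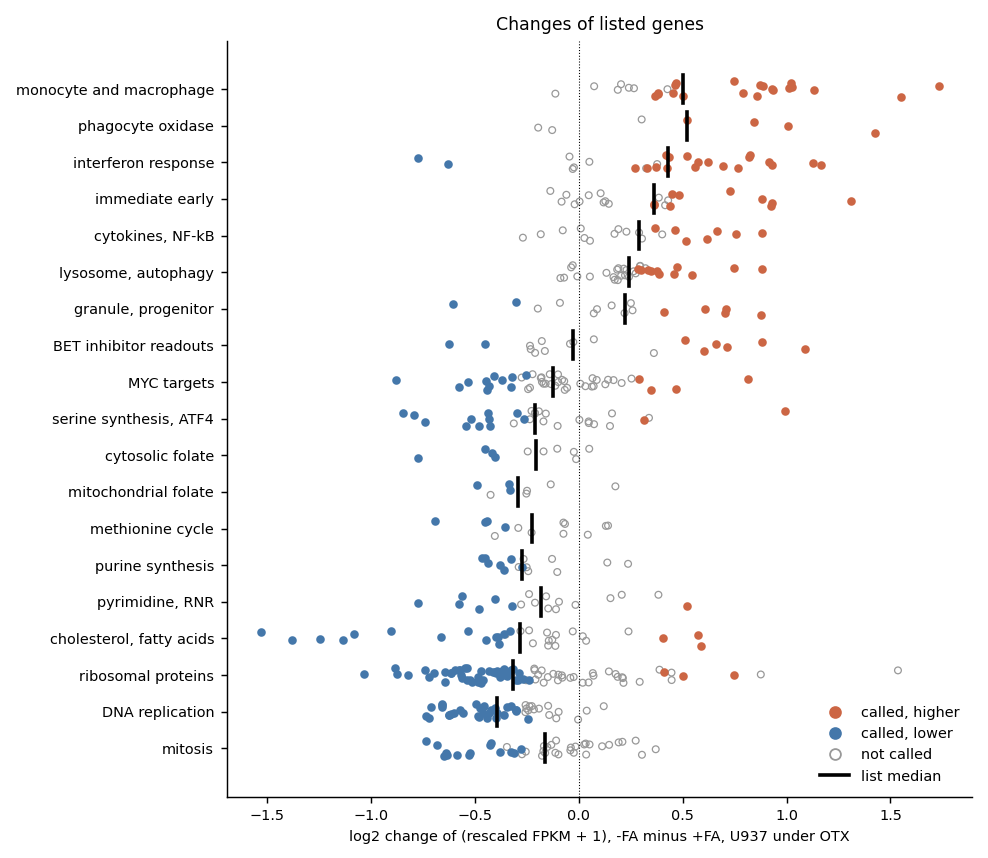
Each point is the log2 change of 1 measured gene in U937 under OTX without folic acid (horizontal axis; log2 of rescaled FPKM + 1), grouped by gene list (vertical axis); filled points passed the test, open points did not, and black bars are list medians. Medians run from 0.52 for the phagocyte oxidase and 0.50 for monocyte genes down to -0.32 for ribosomal proteins and -0.39 for DNA replication.

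The change under OTX was next set against that under DMSO in the same line. Across 10562 genes measured in both, the log2 changes showed almost no correlation (Pearson's r -0.0315, Spearman's -0.0926). Genes are not independent replicates. Folic acid removal under DMSO gave 259 calls among 10918 genes (2.37%), 201 higher (1.84%) and 58 lower (0.531%). The test of the difference between the changes called 203 of 11193 genes (1.81%), 104 toward higher (0.929%) and 99 toward lower values (0.884%) under OTX, but this count was fragile. It was 1728 without +FA DMSO replicate 1, 2609 without -FA DMSO column 1, 161 without -FA OTX column 0 and 1 to 3 without any of the other libraries. Of the 17 genes whose difference was followed through every setting, FADS1 alone kept its call in all of them. It stood at 51.8 and 43.1 FPKM in the DMSO libraries with and without folic acid, and at 104 and 43.4 FPKM in the OTX libraries on the same scale. Its change was thus -0.26 under DMSO and -1.24 under OTX, a difference of -0.98 ± 0.10 (SE; adjusted p = 0.00654). SCD fell in both (log2 -0.93 under DMSO, adjusted p = 0.0092), with a difference of -0.61 (adjusted p = 0.0443), and FASN had a difference of -0.80 (0.0451). For these 2 genes the difference was called in 3 of 12 fits that left out a library, those without +FA DMSO replicate 1, -FA DMSO column 1 and -FA OTX column 0, and their adjusted p reached 0.143 in the others. Both lost it with equal FPKM sums, a pseudocount of 0.1 and a minimum of 5 FPKM, and SCD also with quantile normalization.

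Monocyte genes were higher under DMSO as well, in 14 of 29 measured genes with 0 lower (median 0.61). CD36 stood at 14.6 and 48.7 FPKM under DMSO with and without folic acid, a log2 change of 1.67 (adjusted p = 0.0036), and the difference from its change under OTX did not pass the test (adjusted p = 0.81). C3 likewise went from 1.12 to 7.48 FPKM under DMSO. Over all genes only 1.84% were called higher and 0.531% lower under DMSO, so few calls of a list can be looked for there. Mitosis genes were called in 0 of 41 under DMSO, but their median of -0.37 was lower than the -0.16 under OTX, with 0 called differences. Replication genes were called in 0 of 47 in limma under DMSO (median -0.09), and 7 of 47 had a called difference, all toward lower values under OTX. Among these, MCM5 stood at 121 and 161 FPKM under DMSO and at 137 and 83.4 FPKM under OTX on the same scale, a difference of -1.11 (adjusted p = 0.0496). Interferon genes had 1 of 23 higher under DMSO and 6 of 27 with a called difference, all toward higher values under OTX, IFIT3 with 0.63 (adjusted p = 0.0443). The differences of MCM5 and IFIT3 lost their calls without 10 and 9 of the 12 libraries, with adjusted p up to 0.147 and 0.143. TYMS was at 110 and 123 FPKM under DMSO, and the difference from its fall under OTX did not pass the test (adjusted p = 0.058).

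The change was next set against that in IMS-M2 under the same drug. Across 9797 genes measured in both lines, Pearson's r of the log2 changes was -0.129. In IMS-M2 490 of 10606 genes changed without folic acid under OTX (4.62%), 335 higher (3.16%) and 155 lower (1.46%), and the test of the difference between the lines called 1985 of 11644 genes (17%), 1006 higher in U937 (8.64%) and 979 lower (8.41%). With equal FPKM sums 78.5% of its calls were higher, with upper quartile scaling 36.3%, against 50.7% here. The cholesterol and fatty acid synthesis list held many called differences. Of 33 measured genes of that list 23 were higher and 0 lower in IMS-M2 (median 0.52), and 25 of 33 had a called difference, all lower in U937. SCD stood at 167 and 233 FPKM in IMS-M2 with and without folic acid and at 390 and 136 FPKM in U937 on the same scale, a difference of -1.99 ± 0.09 (adjusted p = 2.79e-07). FADS1 differed by -2.09 and FADS2 by -1.92.

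The serine and ATF4 list had 16 higher and 0 lower of 31 in IMS-M2 (median 0.38) and 20 of 31 lower in U937 by the test of the difference, with 1 higher. PSAT1 went from 22.1 to 52.7 FPKM in IMS-M2 and from 41.6 to 24 FPKM in U937, a difference of -1.99 ± 0.15 (adjusted p = 1.88e-05). DDIT4 differed by -2.21 and, of the noncoding RNAs, LINC00263 by -2.40. Replication genes had 0 higher and 1 lower of 47 in IMS-M2 (median -0.08), and 18 had a called difference, all lower in U937. Monocyte genes differed in 15 of 27, all higher in U937, but only 14 genes of that list passed the filter in IMS-M2 alone. For genes that passed only through U937 the difference can do little but restate the change in U937. CD36, TPSAB1 and LILRA5 were at or near 0 in IMS-M2, where a change could hardly be read. The count of 1985 was 1100 and 1316 without IMS-M2 +FA replicates 1 and 2, and 834 and 1128 without IMS-M2 -FA replicates 1 and 3. It was 3225, 1200 and 1207 without U937 +FA replicates 1 to 3 and 916 without -FA column 1. The differences of SCD, FADS1, FADS2, PSAT1, DDIT4 and LINC00263 were called in all 12 such fits.

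**Figure D5:**
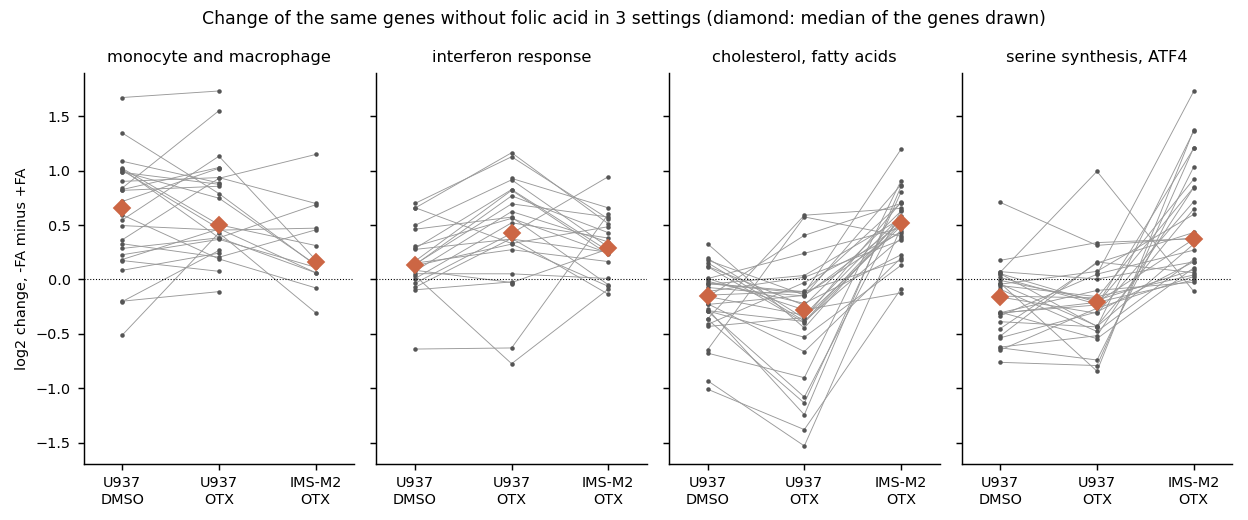
Lines join the log2 changes without folic acid (vertical axis, -FA minus +FA) of the genes of 4 lists in U937 under DMSO, U937 under OTX and IMS-M2 under OTX; diamonds are medians of the genes drawn, which are those measured in U937 under OTX, and a gene below the filter in a setting has no point there. Genes of lipid synthesis and of the serine and ATF4 list lie mostly below 0 in U937 under OTX and mostly above 0 in IMS-M2, while monocyte genes lie mostly above 0 in U937 under both treatments.

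Several of the lowest changes fell on loci where the tables hold more than 1 gene. SLMO2-ATP5E, a readthrough transcript, stood at 11.7, 12 and 22.5 FPKM with folic acid and at 5.65, 0.437 and 1.69 FPKM without it, and lost its call without -FA column 1 (0.05). The readthrough CHURC1-FNTB fell from 5.01 ± 1.67 to 1.28 ± 0.655 FPKM, a call that held without any single library. PCNA-AS1 fell from 930 ± 78.3 to 483 ± 14 FPKM, but it overlaps PCNA, and how the counting used strand is not given in the sources used here. No other gene is listed at exactly the locus of LINC00263, but overlap with or readthrough from its neighbours was not tested. LINC00263 fell from 11.3, 15.0 and 13.9 FPKM to 4.56, 3.13 and 3.16 FPKM (log2 -1.65 ± 0.14; adjusted p = 0.000924), a call that held without any single library. SNRPF, a core protein of the spliceosome, was at 138, 179 and 233 FPKM and then at 79.5, 77.6 and 97.6 FPKM.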

How the data were processed

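Polyadenylated RNA was sequenced from 24 libraries in 8 groups of 3, of which 6 carry the main comparison. FPKM values per gene were deposited by the authors in 4 tables of 23595 genes, 1 table for each cell line and folic acid condition. Per the submitters' processing notes, the build was hg19 and the tools were Cuffdiff 2.2.1, TopHat2 2.1.1 and bcl2fastq 2.17.1.14, whose order is not given. The deposited FPKM carry no counts, so the depth is unknown and no interval from counting error can be given. The -FA columns of U937 are numbered from 0 and the labels from 1, so these columns were matched to their group only.

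Libraries of each comparison were rescaled by median-of-ratios factors, and genes were kept where either group averaged 1 FPKM or more. log2(FPKM + 1) was tested with limma 3.58.1 in R 4.3.3 (intensity trend, Benjamini-Hochberg adjustment over all genes tested, adjusted p below 0.05). Fold changes on this scale understate the change of low genes. Differences between changes were tested as interaction contrasts. The procedure was tested on simulated data. Alternatives were other scalings, a pseudocount of 0.1, other filters, other fits and leaving out each library. Genes were named by rank: the 12 highest and 12 lowest called genes that averaged 5 FPKM or more in a group and did not overlap, up to 4 called members per direction of each of 35 lists by smallest p, any member of the folate, methionine, purine and pyrimidine lists, 9 fixed genes, and the 6 highest and 6 lowest called differences. The members and lists were chosen with earlier results of these data known. Motifs were searched in promoters from RefSeq (GRCh38.p14), matched by symbol for 16172 of 23595 genes. Some listed genes are counted but not reported here by name.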

Additional observations from a re-analysis of the deposited data

Results flagged for a closer look

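Of the 203 genes whose change without folic acid under OTX differed from that under DMSO in U937, 17 are given here, the 6 highest and 6 lowest among genes averaging 5 FPKM or more in a group, and 5 chosen after their values were seen. The test was limma's interaction contrast (OTX change minus DMSO change, log2, n = 3 libraries per group). FADS1, at -0.98, had an adjusted p of 0.00654, and the other 16 had 0.0443 to 0.0496. Toward lower values under OTX were SLMO2-ATP5E at -4.07, PCNA-AS1 at -1.27, the helicase subunit MCM5 at -1.11, the biliverdin reductase BLVRB at -1.05 and the smooth muscle actin ACTA2 at -0.96. The lipid genes FASN, FADS2 and SCD stood at -0.80, -0.78 and -0.61. Toward higher values were DLX2 at 1.67, HIF1A-AS2 at 1.63, C6orf203 at 1.58, SELM at 1.48, the splicing protein SNRNP27 at 1.44, the complex I subunit NDUFC2 at 1.43, PARP9 at 0.65 and IFIT3 at 0.63. FADS1 kept its call in all 9 other settings and without each of the 12 libraries. The other 16 lost it with equal FPKM sums and with a pseudocount of 0.1, and each kept it in only 2 or 3 of the 12 fits without a library.

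Of the 1985 genes whose change in U937 under OTX differed from that in IMS-M2 under OTX by the same kind of contrast, the 6 highest and 6 lowest with the same minimum are given. Lower in U937 were LINC00263 at -2.40 (adjusted p = 4.04e-05), DDIT4 at -2.21, FADS1 at -2.09, SCD at -1.99, PSAT1 at -1.99 and FADS2 at -1.92. Higher in U937 were BCYRN1 at 2.79, CD36 at 1.74, LOC100652739 at 1.71, H19 at 1.69, LILRA5 at 1.68 and TPSAB1 at 1.66. H19, an imprinted noncoding RNA, stood at 29.5 and 6.67 FPKM in IMS-M2 with and without folic acid and at 0.541 and 0.258 FPKM in U937, so its difference lies in IMS-M2. BCYRN1 (adjusted p = 0.0454) shares a locus and was called in 4 of the 12 fits without a library. The other 11 were called in all 12. Of these, CD36, LILRA5 and TPSAB1 had means of at most 0.0213 FPKM in IMS-M2, so their differences largely restate their changes in U937.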

How the results depend on the processing

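The 2229 calls became 1375 with no filter, 1454 with all 12 U937 libraries in the fit, and 4028 with a trend on length and GC removed, an alternative chosen after seeing the data. They ranged from 342 to 3628 with a library left out. The 57 genes with a log2 change of at least 1 became 127 with a pseudocount of 0.1, and 41 to 118 with a library left out, highest without +FA replicate 1. The 203 differences from DMSO became 7 with equal FPKM sums, 2 with a pseudocount of 0.1, 127 with no filter, 1 with a minimum of 5 FPKM and 306 without small RNA symbols, and 1 to 2609 with a library left out. Deposited FPKM without rescaling gave 36.9% of these calls as higher, against 51.2%. The 1985 differences from IMS-M2 ranged from 834 to 3225 with a library left out. The cause of these shifts was not tested. No named gene's change turned direction in an alternative where it was called in the main setting or in that alternative. Turns of genes called in neither were not counted. With upper quartile scaling 44.2% of the main calls were higher, against 52%, and the medians of the BET readout and histone lists changed sign with equal FPKM sums. Of 138 named genes called in the main comparison, 71 were called without each of the 6 libraries, 15 in 5 of these 6 fits, and 98 in all other alternatives. No paired analysis was possible because the -FA columns of U937 carry none of the labels' replicate numbers. In simulated data 76% of differences from DMSO of log2 1 were called, and 93% of those from IMS-M2, with 4 and 5 unchanged genes called. These simulations also left out deviations that many genes of a library share.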

Other observations

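Antigen presentation and survival genes were called in shares near the 20.6% of all genes. Of 14 measured genes of MHC class I and II 3 were higher and 0 lower (median log2 change 0.14), and of 16 BCL2 family genes 3 were higher and 1 lower (median 0.16). In IMS-M2 under OTX 10 of 15 MHC genes were higher without folic acid (median 0.49), and the difference between the lines was called for 8 of 15, all lower in U937. Without +FA replicate 2 and -FA columns 0 and 1 the number of higher MHC genes in U937 was 1 each. The number of higher BCL2 family genes was 1 without +FA replicates 2 or 3 or -FA columns 0 or 1. Of 29 measured histone genes 5 were higher and 6 lower, and HIST1H2BK, a polyadenylated histone transcript that BET inhibitors raise, stood at 29.9, 24.3 and 24.4 FPKM with folic acid and at 40.5, 49.1 and 41.3 FPKM without it.

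FTL, the ferritin light chain that stores iron, was at 13881, 8900 and 6999 FPKM with folic acid and at 17854, 20904 and 17615 FPKM without it. Its call was lost without +FA replicate 2 (adjusted p = 0.0727) and -FA columns 0 (0.0514) and 1 (0.0883).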
